A study of Homo sapiens with 12 samples.

Results

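RNA-seq libraries of HEK293T cells were compared by culture batch. The 6 libraries of a second batch of cells (experiment 2) were set against the 6 libraries of a first batch (experiment 1), which together are all 12 libraries of the study. HEK293T is a human embryonic kidney line that carries the SV40 large T antigen. Each experiment held the same 3 treatments, and each treatment was assayed in 2 technical replicates. The no-plasmid group received no DNA; one label calls these cells non-transfected and another says that they had transfection reagents alone. The dCas9-VP160 group was transfected for 48 h with a plasmid for a Cas9 that cannot cut DNA, fused to the VP160 activator. The guide group received that plasmid together with 6 guide RNAs aimed at the promoter of CD34. Cells were seeded in 100 mm dishes 24 h before transfection, and both transfected groups received 5.4 pmol of plasmid. The 2 technical replicates of each treatment and experiment were summed, which gave 6 summed libraries, and experiment 2 was set against experiment 1 within each treatment, so that the comparison asks which genes differed between batches whatever the treatment.

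Cultures of one line drift as cells are passaged, plated and fed: growth rate, density and medium shift the balance between ribosome production, the cell cycle, energy metabolism and the matrix that cells lay down. A comparison of batches also takes in any step that was done separately for each batch. Such steps may include RNA extraction, cDNA synthesis from 1 ng of total RNA by template switching, and library amplification. The labels say that a second batch of cells was used and do not say which other steps were repeated, so culture and library handling cannot be told apart in any result below.

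Total gene counts ran from 6750035 to 11349564 per library in experiment 1 and from 7210244 to 11932244 in experiment 2, and the share of mitochondrial counts overlapped (5.57% to 8.69% against 5.14% to 8.78%). The levels of 13 known HEK293 transcripts differed widely, in CPM, a gene's count scaled to the total of its library. Among the abundant ones, KRT8 averaged 787 and 841, NEFL 439 and 486, VIM 285 and 325 and CDH2 93.0 and 92.4 in experiments 1 and 2. Others were low in both: SALL1 was at 5.3 and 4.9 CPM, LHX1 at 3.6 and 3.9 and TUBB3 at 0.99 and 0.95. NEFM fell from 2.1 to 1.2 CPM, on 184 counts in all libraries together. PAX2, a kidney factor often used to describe the line, was at 0.580 and 0.502 CPM. Markers of blood, endothelium, fibroblasts and keratinocytes were mostly absent: 28 of 35 had under 1 CPM in the mean, and HBB had no count in any library. The most abundant was EGFL7, an endothelial marker, at 63.2 and 54.5 CPM in experiments 1 and 2, which made up most of the endothelial sum. Its call as lower was lost without the second no-plasmid library of experiment 2 (edgeR adjusted p = 0.0526). The summed level of each list overlapped between experiments for blood, endothelium and keratinocytes. The summed fibroblast markers ran from 35.1 to 36.5 CPM in experiment 1 and from 28.5 to 34.6 CPM in experiment 2, of which COL1A1, itself a member of the matrix list below, made up the larger share. Spike-in reads set both no-plasmid libraries of experiment 1 apart (0.719% and 0.404% of all counts, against at most 0.00818% in the other 10), and they were left out of every library size.

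Of 19662 genes tested with edgeR's quasi-likelihood test, 2354 were higher in experiment 2 (12%) and 2397 were lower (12.2%), together 24.2%, at a Benjamini-Hochberg adjusted p under 0.05. The shares called were larger among protein-coding genes (14.8% and 14.7%) and among abundant ones. Of 3744 protein-coding genes of 50 to 200 CPM without a pseudogene that bears their name, 22.9% were higher and 21.6% lower. Lists of abundant genes below are to be read against these shares too. The differences were small: the median size among the 4751 called genes was 0.22 on the log2 scale, 391 exceeded 0.5 in size, and 42 rose and 71 fell by more than 1. Among called genes 4672 had the same sign in all 3 treatments, beside 10065 of all 19662 genes tested (51.2%). Calls were made from these same differences, so that agreement was largely fixed by the selection. In 15.4% of the genes tested, both libraries of experiment 2 lay outside both libraries of experiment 1 in every treatment and on the same side (1495 higher, 1541 lower). When each treatment was left out in turn, the genes called from the other treatments had the same sign in the one left out in 93.8% (no plasmid), 94.2% (dCas9-VP160) and 95% (guides) of cases, against 63.7% to 65.1% of the genes not called. Over 12898 genes the median absolute log2 difference between single libraries was 0.101 for technical replicates, 0.144 for the 2 experiments of a treatment, 0.121 for guides against no guides and 0.260 for no plasmid against plasmid. The batch range (0.128 to 0.162) lay above that of technical replicates (0.0913 to 0.112) and below that of the plasmid (0.243 to 0.280). It overlapped that of guides against no guides (0.113 to 0.140). With 3 pairs each gene had 2 residual degrees of freedom of its own, and the test rested on the spread shared across genes.

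The difference followed the GC content of the transcripts. Genes whose exons held under 40% G and C had a median log2 difference of 0.10, and 807 of 3031 were higher (26.6%) against 50 lower (1.65%). Genes over 60% had a median of -0.13, with 72 of 2651 higher (2.72%) and 708 lower (26.7%). The medians fell from bin to bin between these ends (0.069 at 40 to 45%, 0.015 at 45 to 50%, -0.058 at 50 to 55% and -0.13 at 55 to 60%), and the low-GC and high-GC ends held their signs in each treatment (0.11, 0.11 and 0.086 at the low end, -0.11, -0.15 and -0.14 at the high end, for no plasmid, dCas9-VP160 and guides). Measured from the mean of their own treatment, all 6 libraries of experiment 2 had a higher median level of genes under 40% GC than all 6 libraries of experiment 1. When a smooth trend on GC content was removed from each summed library, a setting added after the data were seen, 1596 genes were higher (8.12%) and 1469 lower (7.47%), and 2367 of the genes called first were called again in the same direction. The counts of the main gene groups below are therefore followed by those with the trend removed. The latter are to be read against 8.12% higher and 7.47% lower over all genes. Whether the trend came from the cells or from the libraries was not tested.

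**Figure D1:**
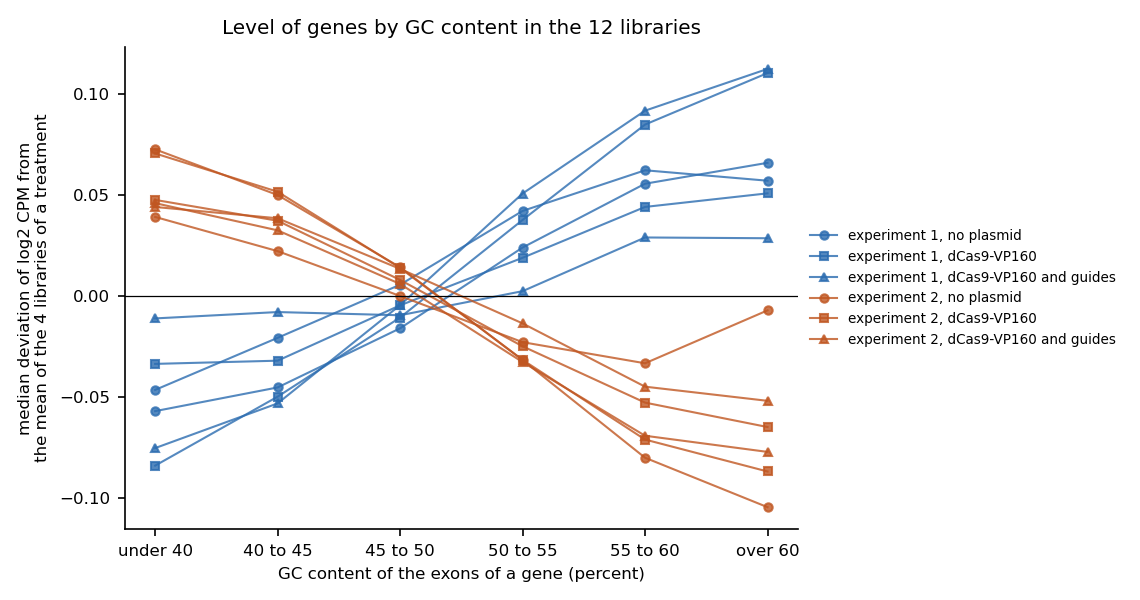
Median deviation of log2 CPM in each of the 12 libraries (vertical axis) from the mean of the 4 libraries of the same treatment, for genes grouped by the GC content of their exons (horizontal axis, percent). The 6 libraries of experiment 1 lie between -0.084 and -0.011 under 40% GC and between 0.029 and 0.11 over 60%; the 6 of experiment 2 lie between 0.039 and 0.073 under 40% and between -0.10 and -0.0071 over 60%, with no overlap at either end.

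The first 90 coding bases are shown for a mitotic gene that rose and a collagen gene that fell (GENCODE 29 transcripts, GRCh38, with G and C in capitals). DLGAP5 lies at chr14:55148112-55191678 on the minus strand and COL4A2 at chr13:110305812-110513209 on the plus strand, and these stretches hold 35.6% and 73.3% G and C. The trend was measured on the longest transcript of each gene, so these short stretches do not place either gene on it.
DLGAP5: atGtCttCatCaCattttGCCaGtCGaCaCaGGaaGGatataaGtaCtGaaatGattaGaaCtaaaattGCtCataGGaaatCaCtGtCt
COL4A2: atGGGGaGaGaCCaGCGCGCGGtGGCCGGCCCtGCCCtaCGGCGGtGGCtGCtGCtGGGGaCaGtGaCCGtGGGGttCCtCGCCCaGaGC
DLGAP5, a spindle protein, was at 93.4, 76.0 and 81.8 CPM in experiment 1 and at 117, 107 and 110 CPM in experiment 2 (no plasmid, dCas9-VP160, guides), a log2 difference of 0.41 (SE 0.041, edgeR adjusted p = 5.08e-08). COL4A2, a chain of basement membrane collagen, went from 188, 99.2 and 100.4 CPM to 125, 73.6 and 69.3 CPM, a log2 difference of -0.52 (SE 0.040, adjusted p = 7.09e-10). Neither gene's libraries overlapped between experiments in any treatment. With the GC trend removed both calls held at smaller sizes, 0.32 for DLGAP5 and -0.39 for COL4A2.

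Histone genes stood at both extremes. H3P6, an annotated processed pseudogene of the histone variant H3.3 at chr2:174719908-174720318, showed the largest rise among genes of at least 5 CPM. Its counts per library were 11 to 26 in experiment 1 and 63 to 109 in experiment 2, or 2.26, 1.52 and 1.60 CPM against 10.5, 8.28 and 8.20 CPM, and its log2 difference was 2.32 (SE 0.15, edgeR adjusted p = 2.86e-11). H3-3A at chr1:226061851-226072001, which encodes H3.3, was next: 7.53, 4.08 and 3.26 CPM became 16.4, 10.0 and 11.8 CPM (log2 difference 1.36, SE 0.12, adjusted p = 8.07e-09). The values of both genes in experiment 2 lay above those of experiment 1 in every treatment, with 22 to 76 counts of H3-3A per library in experiment 1 and 86 to 160 in experiment 2. The 411 coding bases of H3-3A and the 411 bases of H3P6 were compared position by position and differed at 0 of them, so a read from either gene that lies inside this stretch matches both. The first 120 bases, identical in the pair, are shown because they cannot place a read.
H3-3A: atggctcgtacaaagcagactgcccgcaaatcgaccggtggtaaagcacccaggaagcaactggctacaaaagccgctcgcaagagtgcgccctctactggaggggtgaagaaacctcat
H3P6: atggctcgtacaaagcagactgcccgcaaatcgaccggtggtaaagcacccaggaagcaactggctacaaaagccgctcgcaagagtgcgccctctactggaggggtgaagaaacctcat
The annotation lists 5 processed pseudogenes named after H3-3A. The sources do not say how reads with more than one match were counted, so the counts of both genes are uncertain, and the part of read assignment in their rise was not tested.

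The 3 largest falls among genes of at least 5 CPM were in replication-dependent histone genes, whose mRNAs end in a stem-loop and mostly carry no poly(A) tail. H4C5 fell from 12.9, 21.3 and 10.8 CPM to 4.32, 3.22 and 3.54 CPM (log2 difference -2.02, SE 0.18, edgeR adjusted p = 1.03e-05). Its replicates disagreed in the guide group of experiment 1, at 16.9 and 4.95 CPM, and without the first of those libraries the log2 difference was -1.85 with an adjusted p of 0.174. H2AC12 fell by 1.32 (SE 0.16, adjusted p = 2.00e-06) and H2AC20 by 1.14 (SE 0.20, adjusted p = 0.00226), on the log2 scale, and the call on H2AC20 was lost without the first dCas9-VP160 library of experiment 1 (adjusted p = 0.0881) and without the first guide library of experiment 1 (0.203) or 2 (0.0987). Of 32 genes of this list tested, 4 were lower (12.5%, near the 12.2% of all genes) and 1 was higher (3.12%), and without the first guide library of experiment 1 the number lower was 2. The higher one was H4C9 (log2 difference 0.27, SE 0.079, adjusted p = 0.0131, and 0.0548 without the second no-plasmid library of experiment 2), and the list median was -0.074, beside -0.00019 for all genes. Members of these multigene clusters share sequence, so reads may be split between them.

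**Figure D2:**
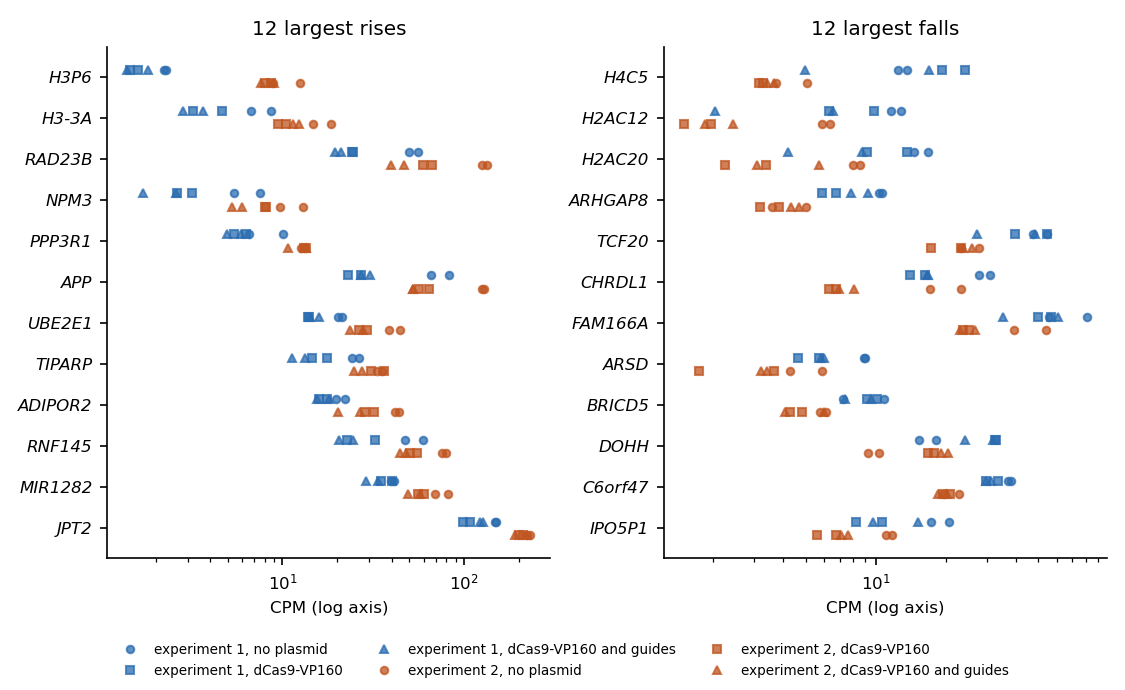
CPM (horizontal axis, log scale) of the 12 genes with the largest rise and the 12 with the largest fall in experiment 2, 1 point per library, blue for experiment 1 and orange for experiment 2, with a symbol for each treatment. In H3P6 every experiment 2 library (7.61 to 12.6 CPM) lies above every experiment 1 library (1.40 to 2.30 CPM), while RAD23B separates the experiments only within a treatment, since its no-plasmid libraries of experiment 1 (49.8 and 56.1 CPM) overlap the transfected libraries of experiment 2 (39.7 to 66.6 CPM).

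The other large rises were in genes of varied roles. RAD23B, which takes part in DNA damage recognition and hands ubiquitinated proteins to the proteasome, went from 52.3, 24.4 and 20.4 CPM to 129.5, 63.5 and 43.6 CPM in the no-plasmid, dCas9-VP160 and guide groups. Its log2 difference was 1.28 (SE 0.054, edgeR adjusted p = 8.59e-15), or 2.43-fold, and it was the gene with the smallest p of all. NPM3, a histone chaperone of the nucleoplasmin family, rose by 1.13 (SE 0.14). PPP3R1, the regulatory subunit of calcineurin, rose by 0.98 (SE 0.11). APP, the amyloid precursor protein, stood at 73.3, 25.5 and 28.8 CPM in experiment 1 and at 127, 61.1 and 52.5 CPM in experiment 2, a log2 difference of 0.95 (SE 0.062). UBE2E1, a ubiquitin-conjugating enzyme, TIPARP, a mono-ADP-ribosyltransferase, ADIPOR2, an adiponectin receptor, RNF145, a ubiquitin ligase of the endoplasmic reticulum, and JPT2 rose by 0.94, 0.83, 0.82, 0.79 and 0.77. The row named MIR1282 rose by 0.77, and this microRNA gene lies inside SERF2, so its counts may be reads of that host gene. In all of these genes the libraries of the experiments did not overlap in any treatment, every call held with each single library left out, and with the GC trend removed their log2 differences ranged from 0.76 to 1.22.

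Among the large falls outside the histones, TCF20, a transcriptional coregulator, went from 50.4, 48.7 and 37.7 CPM to 25.8, 19.9 and 24.6 CPM (log2 difference -0.97, SE 0.095, edgeR adjusted p = 1.67e-05). Without the first guide library of experiment 1 its difference was -0.88 and its adjusted p 0.225. CHRDL1, a secreted antagonist of bone morphogenetic proteins, went from 29.6, 15.5 and 16.7 CPM to 20.6, 6.53 and 7.58 CPM (log2 difference -0.86, SE 0.11, adjusted p = 4.95e-06). DOHH, which completes the hypusine residue of the translation factor eIF5A, fell by 0.73 (SE 0.078, adjusted p = 1.45e-07). ARSD, an arylsulfatase, fell by 0.82, and C6orf47 fell by 0.72. ARHGAP8 fell by 1.03, BRICD5 by 0.80 and FAM166A by 0.85, and each of these overlaps another annotated gene (PRR5-ARHGAP8, MLST8 and TUBB4B). The call on FAM166A was lost without the first no-plasmid library of experiment 1 (adjusted p = 0.115) and without the first guide library of experiment 1 (adjusted p = 0.0841). IPO5P1, a pseudogene of an importin, fell by 0.71. The 12 largest falls contained no gene whose call was lost when the GC trend was removed.

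Ribosomal proteins, the structural proteins of the cytosolic ribosome, formed the list with the most calls in one direction. Of 79 tested, at a median of 279 CPM, 57 were higher (72.2%) and 0 were lower, with a median log2 difference of 0.17. Over all genes 12% were higher and 12.2% lower. Among protein-coding genes of 50 to 200 CPM without a named pseudogene 22.9% and 21.6% were. In the ribosomal list DESeq2 called 54 higher and 0 lower, and no single library left out took the first count below 51 or raised the second above 2. The large and the small subunit moved alike, with 33 of 46 and 23 of 32 members higher and medians of 0.17 and 0.16. RPS7 rose most: 166, 224 and 185 CPM became 258, 324 and 299 CPM, a log2 difference of 0.62 (SE 0.033, adjusted p = 1.60e-12). RPS28 went from 116, 110 and 92.5 CPM to 162, 133 and 130 CPM (log2 difference 0.42, SE 0.041, adjusted p = 5.07e-08). The list median was 0.23 without plasmid, 0.097 with dCas9-VP160 and 0.18 with guides. With the GC trend removed, 63 were higher and 2 lower (median 0.19), the 2 lower being RPL36A at -0.35 and RPS29 at -0.15. RPL3, at 990 CPM, had a difference of -0.039 that did not pass (adjusted p = 0.310), and RPS3, at 1207 CPM, one of 0.015 (adjusted p = 0.751).

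Ribosomal protein mRNAs carry a terminal oligopyrimidine start, a C followed by pyrimidines at the first base, which couples their translation to growth signalling. Bases 10 before to 10 after the RefSeq start (GRCh38.p14) are shown for both ribosomal protein genes named above, with the first 5 transcribed bases in capitals.
RPS7: cgccctcctcCTCGCgctgt
RPS28: gaagcacgtgACTCCtctcc
RPS7 is taken from chr2:3575250-3575269 and RPS28 from chr19:8321486-8321505, both on the plus strand. Neither matched a C followed by 4 pyrimidines at the listed start. In RPS28 a C and a run of pyrimidines begin at the next base. In RPS7 a run of pyrimidines spans the listed start, so a match depends on the exact base listed. Of the 63 list members with a promoter in the table, 43 matched (68.3%), against 4.07% of 35116 RefSeq starts of the same length. Outside the list, 104 of 558 genes with such a start were higher (18.6%) and 88 lower (15.8%), with a median log2 difference of 0.013. Among 10941 genes without it, 14.8% were higher and 15% lower, with a median of -0.00012; the difference between these groups was not tested.

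Ribosomal protein genes are also a large family of parents of processed pseudogenes, which are copies of mature mRNA pasted back into the genome. In the annotation 78 of the 79 had at least 1 pseudogene that bears their name, with 15 for RPS7 and 3 for RPS28. Across all protein-coding genes, a grouping chosen after the data were seen, the batch difference rose with that number. The median was -0.011 for 13045 genes with none, 0.045 for 683 genes with 1, 0.10 for 447 genes with 2 to 4 and 0.12 for 219 genes with 5 or more, and the share called higher was 12.6%, 25.6%, 42.5% and 53.4%. With ribosomal proteins left out, the medians of the last 2 groups were 0.10 and 0.099, and with the GC trend removed as well they were 0.049 and 0.070. Genes with more pseudogenes had higher levels (median 27.1, 67.2, 94.6 and 185 CPM) and lower GC content (median 49.0%, 45.5%, 44.5% and 45.7%). Among genes of 50 to 200 CPM outside the ribosome the medians were 0.015, 0.054, 0.11 and 0.092. The shares called higher there were 22.9%, 30.8%, 49.3% and 39.7%, so neither measure rose into the last group. Of 417 processed pseudogenes tested, 34 were higher (8.15%) and 8 lower (1.92%), both below the shares of 14.8% and 14.7% among protein-coding genes, with a median of 0.10, or 0.12 with the GC trend removed. Whether reads that match a gene and its copies were assigned alike in both batches was not tested.

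**Figure D3:**
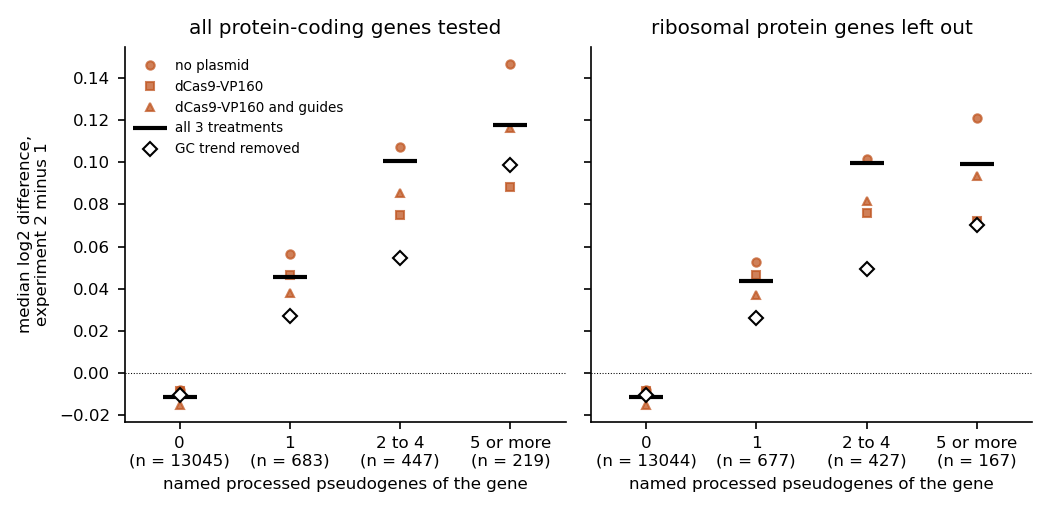
Median log2 difference of experiment 2 minus experiment 1 (vertical axis) for protein-coding genes grouped by how many processed pseudogenes bear their name (horizontal axis, with the number of genes), for all genes on the left and without ribosomal protein genes on the right. Orange symbols give each treatment, bars all 3 treatments and open diamonds the value with the GC trend removed; the bars on the left stand at -0.011, 0.045, 0.10 and 0.12.

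Nuclear genes of oxidative phosphorylation, the respiratory chain and ATP synthase of the mitochondrion, had more members higher than lower. Of 77 genes 37 rose (48.1%, against 12% of all genes) and 7 fell (9.09%, against 12.2%), with a median log2 difference of 0.11. With the GC trend removed 33 rose and 4 fell. Without the first dCas9-VP160 library of experiment 1 the number that rose was 21, and the number that fell was 3 without the second no-plasmid library of experiment 2 and 4 without the first guide library of experiment 1. Without both no-plasmid groups 19 rose and 9 fell. By complex, 11 of 15 ATP synthase subunits, 15 of 38 complex I subunits, 5 of 9 complex III subunits and 3 of 10 complex IV subunits rose. NDUFB7, a complex I subunit, went from 54.9, 50.7 and 52.5 CPM to 81.5, 70.3 and 68.0 CPM (log2 difference 0.48, SE 0.048, edgeR adjusted p = 6.13e-08), although 65.0% of its exon bases are G or C. NDUFA5 rose by 0.37 (SE 0.041), NDUFA3 fell by 0.30 (SE 0.051), and NDUFB1 fell by 0.53 (SE 0.13) at an adjusted p of 0.0472 that was lost when any 1 of 7 of the 12 libraries was left out (adjusted p up to 0.255). The list median was 0.16 without plasmid, 0.036 with dCas9-VP160 and 0.11 with guides.

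The 15 genes encoded in mitochondrial DNA itself did not move as one, with 3 higher and 6 lower (1 and 6 with the GC trend removed). These were 20% and 40%, against 12% and 12.2% of all genes. On the 12 unsummed libraries, and there with the replicate number as a block, 0 were called in either direction. MT-CO2, a subunit of cytochrome oxidase, was at 4312, 2931 and 3651 CPM in experiment 1 and at 5175, 3085 and 3906 CPM in experiment 2 (log2 difference 0.15, SE 0.028, edgeR adjusted p = 0.000382). Single libraries bear on this list, whose counts ranged from 0 to 5 higher and from 1 to 8 lower when each was left out. The guide replicates split alike in both experiments in the share of mitochondrial counts. First and second replicates had 5.57% and 7.496% in experiment 1 and 5.59% and 7.44% in experiment 2. The shares were 8.69% and 8.41%, then 8.78% and 8.31%, without plasmid. With dCas9-VP160 they were 5.57% and 5.63%, then 5.14% and 5.41%. Whether the split in the guide groups bears on these calls was not tested. MT-CO2 was not called without the first or the second guide library of experiment 1 (0.062, adjusted p = 0.772, and 0.25, adjusted p = 0.151) or without the second guide library of experiment 2 (0.078, adjusted p = 0.588). MT-ND3, a complex I subunit, fell by 0.43 (SE 0.058, adjusted p = 5.99e-06), and without the first guide library of experiment 1 its adjusted p was 0.318 at a difference of -0.57, and without the second guide library of experiment 2 0.120 at -0.49.

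Genes of mitosis were more often higher than lower. Of 42 tested, 26 were higher (61.9%, against 12% of all genes) and 2 lower (4.76%, against 12.2%), with a median log2 difference of 0.13. DESeq2 called 16 higher and 1 lower. Without the second no-plasmid library of experiment 2 the number higher was 18. In 17 of the 42 the libraries did not overlap between experiments in any treatment, beside 15.4% of all genes tested. HMMR, a spindle and hyaluronan-binding protein, went from 50.5, 50.6 and 50.9 CPM to 64.2, 69.1 and 60.6 CPM (log2 difference 0.35, SE 0.049, edgeR adjusted p = 6.91e-06). CDK1, the kinase that drives entry into mitosis, rose by 0.20, CCNB1, its cyclin partner, by 0.19, MKI67, a coat of mitotic chromosomes used as a proliferation marker, by 0.18, and TOP2A, which untangles sister chromatids, by 0.16. The 2 lower members were regulators: FOXM1, a transcription factor of late cell cycle genes, fell by 0.20 (SE 0.039, adjusted p = 0.000300) and PLK1, a mitotic kinase, by 0.12 (SE 0.036, adjusted p = 0.0113), the latter call being lost without the second no-plasmid library of experiment 2 (adjusted p = 0.0578). The GC content of the list was low, with a median of 43.2%, and with the GC trend removed 13 were higher and 0 lower with a median of 0.066. DLGAP5, HMMR, CDK1 and MKI67 were among those still higher, at 0.32, 0.24, 0.097 and 0.18, and FOXM1 (-0.11, adjusted p = 0.0501) and PLK1 (-0.014, adjusted p = 0.851) were not called. S phase genes were divided, 13 of 50 being higher (26%) and 12 being lower (24%), with a median of 0.025 (7 and 6 with the GC trend removed). These shares lay near the 22.9% and 21.6% of protein-coding genes of 50 to 200 CPM without a named processed pseudogene. The number higher was 7 without the first no-plasmid library of experiment 1 or the second of experiment 2, and 8 without the first dCas9-VP160 library of experiment 1. CLSPN, a checkpoint adaptor, and RFC4, a clamp loader subunit, rose by 0.23 each, while E2F1, the transcription factor of S phase entry, fell by 0.39 (SE 0.044) and POLE, a replicative polymerase, by 0.27 (SE 0.035).

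Promoters of mitotic genes are known for a CHR element, TTTGAA, that recruits the DREAM and MuvB complexes, next to CCAAT boxes. Both motifs were searched on either strand in windows of 300 bases, 250 before to 50 after each RefSeq start. TTTGAA was present in 21 of 34 mitosis promoters in the table (61.8%) and in 15.2% of all 35116 promoters, CCAAT in 24 (70.6%) and in 34.6%, and both in 17 (50%) and in 5.90%. The promoters of DLGAP5 (chr14:55191536-55191835, minus strand) and HMMR (chr5:163460382-163460681, plus strand) are shown, with matches to either motif on either strand in capitals, since both genes hold both motifs.
DLGAP5: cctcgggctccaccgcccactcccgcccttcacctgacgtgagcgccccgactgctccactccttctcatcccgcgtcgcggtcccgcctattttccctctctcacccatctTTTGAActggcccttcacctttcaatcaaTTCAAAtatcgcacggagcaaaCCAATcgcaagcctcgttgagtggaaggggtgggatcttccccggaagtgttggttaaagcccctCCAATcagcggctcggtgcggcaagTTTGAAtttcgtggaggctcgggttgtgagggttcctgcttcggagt
HMMR: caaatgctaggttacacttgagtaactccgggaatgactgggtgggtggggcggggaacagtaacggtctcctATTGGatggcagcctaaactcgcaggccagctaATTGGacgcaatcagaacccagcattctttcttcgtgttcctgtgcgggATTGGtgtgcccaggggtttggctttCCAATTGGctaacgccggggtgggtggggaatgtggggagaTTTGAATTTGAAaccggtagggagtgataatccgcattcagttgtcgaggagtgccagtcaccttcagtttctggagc

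Extracellular matrix genes were more often lower than higher. Of 34 matrix and mesenchymal genes tested, 19 were lower (55.9%, against 12.2% of all genes) and 2 higher (5.88%, against 12%), with a median log2 difference of -0.16. DESeq2 called 11 lower and 1 higher. With the GC trend removed 13 were lower and 2 higher (median -0.14), beside 7.47% lower and 8.12% higher over all genes. Without the no-plasmid groups 11 were lower. Collagen chains, a subgroup chosen after its values were seen, held 11 of the 19, with 11 of 13 lower, 0 higher and a median of -0.29. Removal of the GC trend left 6 of the 13 lower and a median of -0.19. The list median was -0.20 without plasmid, -0.14 with dCas9-VP160 and -0.12 with guides. COL5A2, a fibrillar collagen chain, went from 29.1, 18 and 21.8 CPM to 23.9, 14.9 and 16.1 CPM (log2 difference -0.32, SE 0.070, edgeR adjusted p = 0.00114). FN1, fibronectin, fell by 0.26 and by 0.33 with the GC trend removed, and COL3A1 by 0.28 and 0.24. The members that rose were VIM, an intermediate filament of mesenchymal cells and of this line (log2 difference 0.19, SE 0.030, adjusted p = 2.61e-05), and TIMP2, an inhibitor of matrix proteases (0.43, SE 0.10, adjusted p = 0.00318).

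**Figure D4:**
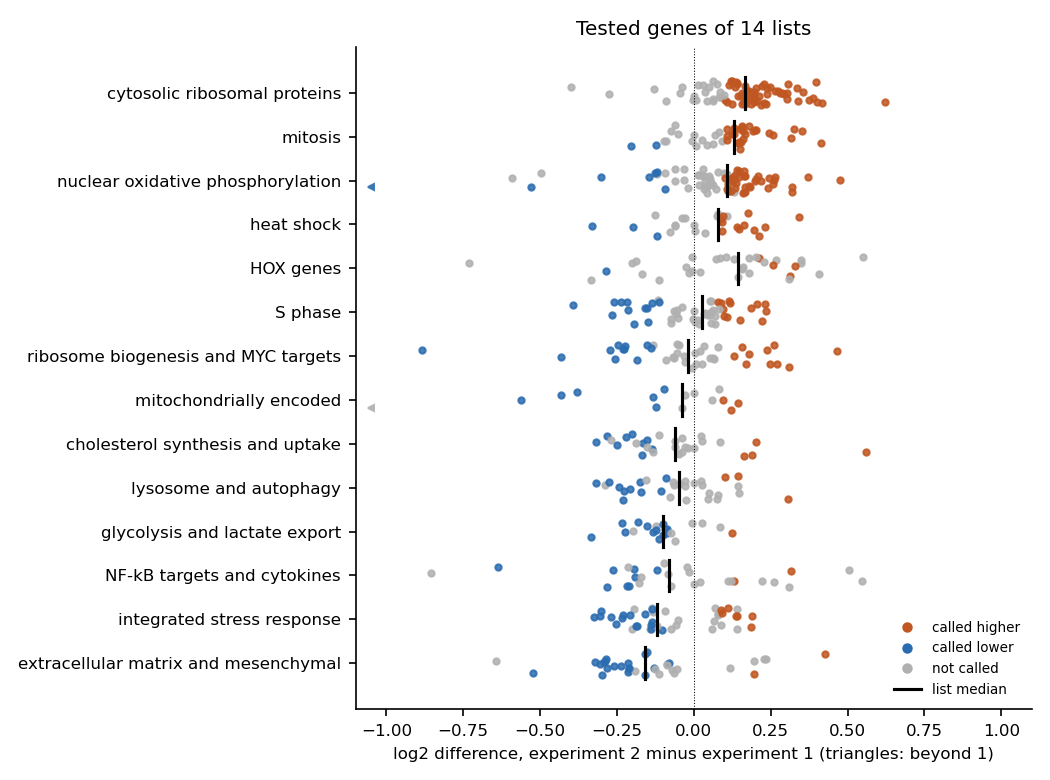
Log2 difference of experiment 2 minus experiment 1 (horizontal axis) for each tested gene of 14 lists, 1 point per gene, orange where called higher, blue where called lower and grey where not called, with a black bar at the list median and triangles for values beyond 1 in size. Ribosomal protein genes lie to the right (median 0.17, 57 of 79 higher) and matrix genes to the left (median -0.16, 19 of 34 lower).

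The metabolic lists are set beside 12.2% lower and 12% higher over all genes, or 7.47% and 8.12% with the GC trend removed. Of 21 genes of glycolysis and lactate export, 13 were lower and 1 higher (median log2 difference -0.10), and 4 were lower and 1 higher with the GC trend removed. Without the second no-plasmid library of experiment 2 the number lower was 5. SLC2A1, the glucose transporter GLUT1, went from 29.2, 40.4 and 38.8 CPM to 24.1, 35.0 and 26.7 CPM (log2 difference -0.33, SE 0.064, edgeR adjusted p = 0.000314), and PFKM, a phosphofructokinase, from 142, 103 and 100.3 CPM to 120, 86.6 and 86.8 CPM (-0.23, SE 0.038, adjusted p = 4.85e-05). LDHB, a lactate dehydrogenase subunit, rose by 0.13 (SE 0.025). Of 24 genes of fatty acid synthesis, 11 were lower and 1 higher. After removal of the GC trend 5 were lower and 0 higher, DESeq2 called 2 lower and 0 higher, and without the first guide library of experiment 1 the number lower was 5, and without the second no-plasmid library of experiment 2 it was 6. ACLY, which makes cytosolic acetyl-CoA, went from 357, 332 and 350 CPM to 269, 254.9 and 268 CPM (log2 difference -0.39, SE 0.029, adjusted p = 4.92e-10), and -0.35 with the GC trend removed. In cholesterol synthesis 9 of 29 were lower and 4 higher (5 and 2 with the GC trend removed): HMGCS1, which commits acetyl units to the pathway, rose by 0.56 (SE 0.048, adjusted p = 5.77e-09), while MVD and PMVK, later enzymes of the mevalonate pathway, fell by 0.32 and 0.28 and were not called with the GC trend removed (adjusted p = 0.0646 and 0.0567). Of 31 lysosome and autophagy genes, 10 were lower and 3 higher (5 and 3 with the GC trend removed), among them CTSD, cathepsin D, which fell by 0.28 (SE 0.039), and GAA, the lysosomal glucosidase, which fell by 0.32 (SE 0.050).

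Stress programmes had calls in both directions, to be read against 12% higher and 12.2% lower over all genes (8.12% and 7.47% with the GC trend removed). In the integrated stress response, whose effector ATF4 induces amino acid synthesis and uptake, 16 of 41 genes were lower and 7 higher (median log2 difference -0.12), and 4 were higher without the second no-plasmid library of experiment 2. With the GC trend removed the counts were 10 and 5 and the median -0.034. PYCR1, an enzyme of proline synthesis, fell by 0.30 (SE 0.038, edgeR adjusted p = 1.52e-06), SHMT2, a mitochondrial one-carbon enzyme, by 0.30 and ATF4 itself by 0.14 (adjusted p = 0.0907 without the second no-plasmid library of experiment 2), while CEBPG, a partner of ATF4, and ATF3 rose by 0.19 each (SE 0.033 and 0.040). Heat shock genes leaned upward, with 12 of 27 higher and 3 lower (9 and 2 with the GC trend removed). HSPE1, the mitochondrial co-chaperonin, went from 40, 50.5 and 47.3 CPM to 54.3, 60.5 and 59.4 CPM (log2 difference 0.34, SE 0.051, adjusted p = 1.41e-05), and HSP90AA1, an inducible cytosolic chaperone, rose by 0.23 (SE 0.027). HSPA1B, an inducible HSP70 with a near-identical copy in HSPA1A, fell by 0.33 (SE 0.047), and reads may be split between the copies. In the unfolded protein response 6 of 28 were higher (21.4%) and 2 lower (7.14%), or 4 and 3 with the GC trend removed. The share higher lay near the 22.9% of protein-coding genes of 50 to 200 CPM without a named processed pseudogene. The number higher was 3 without the first no-plasmid library of experiment 1 or the second of experiment 2. Among the higher were HSP90B1 (0.22, SE 0.027) and MANF (0.28, SE 0.054).

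**Figure D5:**
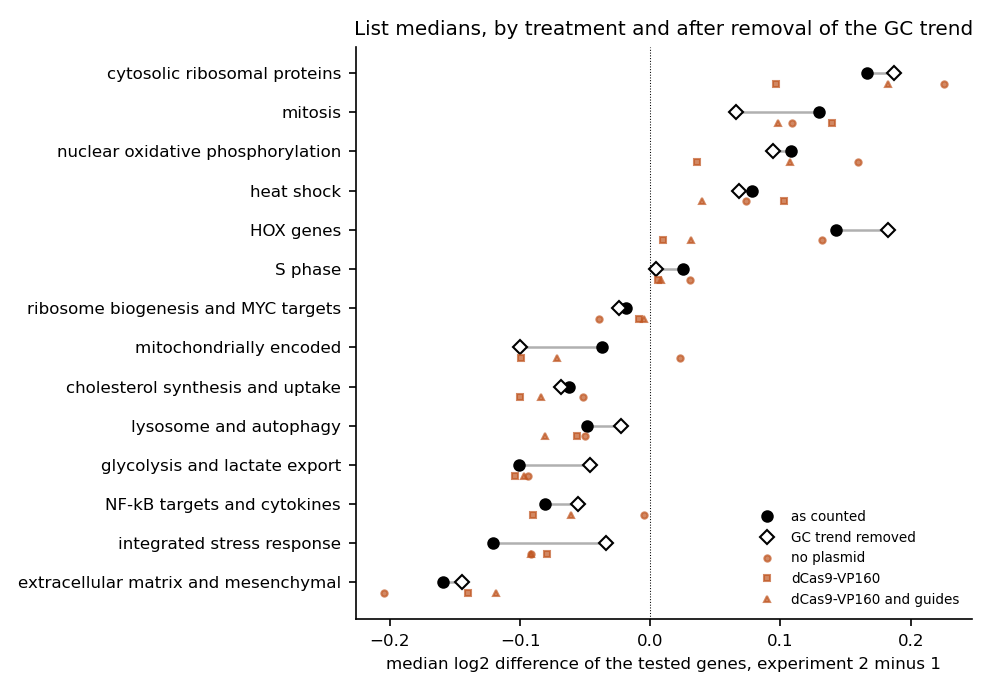
Median log2 difference of experiment 2 minus experiment 1 (horizontal axis) for 14 gene lists, as counted (filled circles), with the GC trend removed (open diamonds) and by treatment (small orange symbols). Ribosomal protein genes stand at 0.17 and 0.19 before and after removal, mitosis genes at 0.13 and 0.066, and integrated stress response genes at -0.12 and -0.034.

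Of the other lists, 8 of 28 NF-kB targets and cytokines were lower (28.6%, against 12.2% of all genes) and 2 higher (7.14%, against 12%). In that list 1 was lower and 1 higher with the GC trend removed, and DESeq2 called 2 lower and 0 higher. With single libraries left out the number higher was 0 or 1. The number lower ranged from 3, without the second no-plasmid library of experiment 2, to 8. It was 4 without the first no-plasmid library, the second dCas9-VP160 library or the first guide library of experiment 1. It was 5 without the first dCas9-VP160 library of either experiment or the second guide library of experiment 2. SOD2, mitochondrial superoxide dismutase, carried the largest fall there, from 139, 130 and 135 CPM to 97.4, 74.0 and 88.8 CPM (log2 difference -0.64, SE 0.045, edgeR adjusted p = 2.65e-10), and -0.71 with the GC trend removed, although without the first no-plasmid library of experiment 2 its adjusted p was 0.138 at a difference of -0.55. Among immediate early genes 3 of 32 were higher (9.38%) and 5 lower (15.6%), near the shares over all genes, and 5 were higher and 3 lower with the GC trend removed. The median of that list was -0.029. JUN, a subunit of the AP-1 factor, rose by 0.41 (SE 0.039) and MYC by 0.27 (SE 0.056), and both rose by more with the GC trend removed (0.51 and 0.34). The lower members included NR4A1, whose call was lost without the second dCas9-VP160 library of experiment 1 (log2 difference -0.23, edgeR adjusted p = 0.0638). For p53 targets, in a line whose large T antigen binds p53, 7 of 27 were higher and 7 lower (2 and 6 with the GC trend removed, and 4 higher without the second no-plasmid library of experiment 2), including BAX, which promotes apoptosis (0.30, SE 0.042), and CDKN1A, which arrests the cell cycle (-0.30, SE 0.029). Interferon-stimulated genes had 7 of 45 higher and 4 lower (1 and 1 with the GC trend removed), and 4 higher without the first no-plasmid or the first guide library of experiment 1. NRF2 and iron storage genes had 6 of 22 higher and 7 lower (5 and 1 with the trend removed), and 4 lower without the first guide library of experiment 2. Ribosome biogenesis genes had 10 of 40 higher and 11 lower (11 and 6) and HOX genes 4 of 33 higher and 1 lower (4 and 0). The p53, NRF2 and ribosome biogenesis lists had 25% to 27.3% higher and 25.9% to 31.8% lower. Among protein-coding genes of 50 to 200 CPM without a named processed pseudogene the shares were 22.9% and 21.6%, so these lists stood not far from such genes. In ribosome biogenesis DDX18, a nucleolar helicase, rose by 0.46 (SE 0.041) and NPM1, the nucleolar histone chaperone, by 0.31 (SE 0.028), while CAD, which starts pyrimidine synthesis, fell by 0.43 (SE 0.040). CRY2, a repressor of the circadian clock, fell by 0.41 (SE 0.062), in a list with 1 of 18 higher and 3 lower. The other lists had few calls, to be read against 12% higher and 12.2% lower over all genes. The counts higher and lower were 4 and 4 of 33 for hypoxia (1 to 8 higher with single libraries left out), 4 and 4 of 27 for YAP and TEAD targets (2 to 5 higher), 7 and 3 of 24 for long noncoding RNAs (4 to 7 higher), 2 and 2 of 15 for imprinted genes and 2 and 3 of 20 for neuronal genes. They were 1 and 0 of 18 for kidney identity, 1 and 0 of 7 for metallothioneins and zinc transport, 0 and 1 of 7 for cancer-testis genes and 3 and 1 of 13 for HEK293 markers.

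Of 3 genes often used as reference, ACTB and GAPDH were called lower and TBP was not called. ACTB, beta-actin, went from 3683, 2996 and 2940 CPM to 3009, 2374 and 2266 CPM (log2 difference -0.33, SE 0.024, edgeR adjusted p = 3.02e-10), and its libraries did not overlap between experiments in any treatment. GAPDH fell by 0.099 (SE 0.024, adjusted p = 0.00271). With the GC trend removed ACTB had a difference of -0.25 and GAPDH one of 0.025 that did not pass (adjusted p = 0.563), and without the second no-plasmid library of experiment 2 the adjusted p of GAPDH was 0.142. TBP, the TATA-binding protein, had a difference of 0.039 (SE 0.052, adjusted p = 0.656). CD34, the gene that the guides target, was at 102 and 96.3 CPM in the guide groups of experiments 1 and 2 and at 0.875 to 2.06 CPM in the other 4 summed libraries. Its batch difference was -0.077 (SE 0.074, adjusted p = 0.511).

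By chromosome the medians ran from -0.095 on chromosome 22 (476 genes, median GC content 55.5%) to 0.085 on chromosome 13 (358 genes, 43.6%). With the GC trend removed they lay between -0.026 and 0.035, the latter on chromosome 21. In 282 windows of 10 Mb with at least 20 tested genes, 30 medians were over 0.1 and 10 under -0.1; with the trend removed 2 and 0 were. The most extreme windows were on chromosome 16 from 30000001 to 40000000 (median -0.14, 80 genes, 19 lower and 1 higher) and on chromosome 2 from 50000001 to 60000000 (0.17, 28 genes, 13 higher and 0 lower), at median GC contents of 58.0% and 42.4%. No window of this size stood beyond 0.13 in size with the trend removed.

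Whether the batch difference depended on treatment was tested on the 12 unsummed libraries, in which the spread is that of technical replicates. edgeR's test of both interaction terms called 0 of 17975 genes, with 754 at an unadjusted p under 0.05, and DESeq2's likelihood ratio test called 0 with 162. The smallest adjusted p with edgeR was 0.0889. A single contrast of the no-plasmid group against the average of both transfected groups called 5 genes. PPP1R8, a nuclear inhibitor of protein phosphatase 1, went from 60.6 to 62.1 CPM without plasmid, from 40.6 to 64.0 CPM with dCas9-VP160 and from 38.4 to 65.4 CPM with guides. DUSP16, a phosphatase of stress kinases, was at 35.3 and 39.4 CPM, 30.7 and 50.6 CPM, and 24.1 and 44.2 CPM in the same order. RCC2, KIFC1, a mitotic kinesin, and PLCG1, a phospholipase, also had more positive batch differences in transfected cells than without plasmid, and none of these 5 genes was called in the comparison over all treatments (adjusted p = 0.256, 0.0552, 0.419, 0.494 and 0.936 for PPP1R8, DUSP16, RCC2, KIFC1 and PLCG1).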

How the data were processed

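The authors deposited a table of raw gene counts for 12 libraries (60604 gene identifiers and 92 spike-in rows). Per the labels, libraries were made with the SMART-Seq HT and Nextera XT kits. Trim Galore 0.3.7, STAR 2.6.0c, Picard 2.17.1, DESeq2 1.16.1 and the build hg38 are named in the submitters' processing notes; the sources used here state neither the counting program, its treatment of strand and of reads with several matches, nor the annotation release. A deposited table of the authors' comparisons was not used.

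Technical replicates were summed by treatment and experiment. The 6 sums were filtered with filterByExpr, scaled by TMM and fitted in edgeR 4.0.16 (R 4.3.3, limma 3.58.1) by robust quasi-likelihood with terms for treatment and experiment. Benjamini-Hochberg adjustment ran over all genes tested, with calls made below 0.05. SE is the size of the log2 difference divided by the square root of F. The treatment by experiment interaction was fitted on the 12 libraries. Nothing says that replicates came from separate cultures. The fit to the 6 sums removed treatment and experiment, so p-values of the batch difference measure how it varied between treatments. Each experiment was a single batch of cells, so no p-value here measures variation from batch to batch. Counts carry counting error beyond the spread between treatments. DESeq2 1.42.0 and limma voom were alternatives. GC content and gene types are from GENCODE 29, which matched 56812 identifiers; symbols matched 56321, and 19450 of the tested genes had a GC value. The GC trend was a loess fit (span 0.5) of log2 CPM (prior count 2) in each library, used as an offset.

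Named genes are the 12 largest rises and 12 largest falls among called genes with a symbol, a mean of at least 5 CPM and 1 direction in all 3 treatments; up to 2 called rises and 2 called falls per list; ACTB, GAPDH, TBP and CD34; and the 6 smallest interaction p-values. Other genes and 10 Mb windows named in the text were picked after their values were seen. The 35 gene lists and the comparison were chosen with earlier results of these data known, and lists are described by counts and medians beside those of all genes, without a test of the list. Scripts were tested on simulated data.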

Additional observations from a re-analysis of the deposited data

Results flagged for a closer look

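Spike-in reads, which no comparison used, made up 0.719% and 0.404% of all counts in the no-plasmid libraries of experiment 1 (first and second replicate), against 0.00220% to 0.00818% in the libraries of experiment 2 and 0% to 0.00019% in the other libraries of experiment 1. They are listed because this signal appeared in data outside the measurement. Without the no-plasmid groups of both experiments, 1864 genes were higher and 1985 lower.

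The batch differences of 5 genes were called different between transfected and no-plasmid cells by an edgeR contrast on the 12 libraries (Benjamini-Hochberg adjusted). The spread in that contrast is that of technical replicates, so it compares these cultures and cannot show a dependence on transfection. PPP1R8 had a batch difference larger by 0.69 on the log2 scale in transfected cells (adjusted p = 0.0306), DUSP16 by 0.65, KIFC1 by 0.47, PLCG1 by 0.44 and RCC2 by 0.42 (adjusted p = 0.0407 for each of these 4). In no plasmid, dCas9-VP160 and guides the differences of PPP1R8 were 0.036, 0.65 and 0.77, and those of PLCG1 -0.28, 0.051 and 0.24. The joint test of both interaction terms called none of them.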

How the results depend on the processing

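Counts of genes higher and lower stayed within 1.5 times of 2354 and 2397 under other scalings, filters, limma voom, removal of a length trend, omission of mitochondrial genes and the 12 unsummed libraries. Over 12898 genes technical replicate numbers did not pair libraries across groups (correlations of replicate differences -0.18 to 0.11 over 15 pairs of groups). The mitochondrial share of the guide replicates nevertheless split alike in both experiments. Chi-square per gene between replicates was 4.37 and 3.07 in the guide groups of experiments 1 and 2, against 1.84 to 2.92 in the other groups. With the replicate number as a block the counts of genes higher and lower were 2370 and 2354. DESeq2 called 1084 and 1033 among the 10894 genes it gave an adjusted p. Without a treatment term 0 and 0 were called. Leaving out libraries, replicates or treatments gave 1001 to 2424 higher and 1254 to 2545 lower, the lowest without replicate 1. Removing the GC trend, chosen after seeing the data, gave 1596 and 1469, and with the replicate block 1557 and 1497. The interaction test called 0 genes by RLE scaling, the replicate block, guides against no guides and GC removal, 7 without a filter and 5 for no plasmid against transfected. PLCG1 ranged from -0.13 without the guide groups to 0.14 without the no-plasmid groups, SLC39A10 turned to -0.0016 with the GC trend removed, and GAPDH to 0.025, or 0.023 with the replicate block as well; the cause was not tested. For named genes, 257 of the calls compared were lost over the settings that left out libraries and 257 over the others, 129 of these without a treatment term. Genes of a few CPM had few counts per library, which limits their precision.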
